A study of Mus musculus with 9 samples.

Results

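A set of 10 genes of fat-cell hormones and lipid droplet metabolism was followed in ribosome-bound RNA captured with an endothelial tag from white fat of mice. They were chosen by name, through their Ensembl identifiers, and not by their values: Adipoq, Retn, Cfd and Lep for secreted products, Plin1 and Cidec for the lipid droplet surface, Pnpla2 and Lipe for lipolysis, Pck1 for glycerol 3-phosphate supply, and Car3 as an abundant fat-cell enzyme. All 10 were present among the 11802 genes measured. The libraries labelled KO (n = 5) came from mice labelled Pdgfb-iCreERT2:Mfn2iΔEC:Rpl22HA, in which Mfn2 is recorded as absent from endothelial cells. The libraries labelled WT (n = 4) came from mice labelled Pdgfb-iCreERT2:Rpl22HA, in which Mfn2 is recorded as present. Both groups carried the inducible Cre recombinase under the Pdgfb promoter and the RiboTag allele Rpl22HA, so the tag and the Cre are shared and Mfn2 is the labelled difference. RiboTag puts an HA epitope on a protein of the large ribosomal subunit in cells that have expressed Cre, and an anti-HA antibody then retrieves ribosomes with their RNA from a homogenate of the whole tissue. The homogenate set aside before each capture is not analysed here, so no enrichment of a gene by the capture can be computed. The labels number the replicates as biological without naming animals, ages or the dates of induction.

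White fat cells store triglyceride in 1 large droplet and release fatty acids from it on demand. Perilipin 1 coats that droplet and keeps lipases away from it until it is phosphorylated, CIDEC lets droplets fuse and grow, and adipose triglyceride lipase (Pnpla2) and hormone-sensitive lipase (Lipe) then cut triglyceride and diglyceride in sequence. The same cells secrete adiponectin (Adipoq), leptin (Lep), adipsin (Cfd) and, in rodents, resistin (Retn). None of these genes is a textbook marker of endothelial cells, although Pnpla2 and Lipe are also expressed at lower levels in other cell types. Car3 is also abundant in skeletal muscle and in liver, and Pck1 in liver.

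The stretches just upstream of the start sites are shown for the 3 genes with the lowest and the 1 gene with the highest change between the groups relative to the library median, as the control regions next to the starts of these RNAs. They are RefSeq sequences of build GRCm38.p6, given 5′ to 3′ on the strand of the gene, and end before the first annotated base of the gene, which for Plin1 and Pck1 lies upstream of the RefSeq start. Capitals mark a match to a searched motif.
Adipoq, chr16:23146286-23146535, plus strand: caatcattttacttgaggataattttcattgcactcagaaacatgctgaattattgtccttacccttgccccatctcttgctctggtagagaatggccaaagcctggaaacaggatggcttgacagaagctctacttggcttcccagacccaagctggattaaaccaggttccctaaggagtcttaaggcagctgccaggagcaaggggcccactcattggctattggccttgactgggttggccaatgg
Plin1, chr7:79732904-79733026, minus strand: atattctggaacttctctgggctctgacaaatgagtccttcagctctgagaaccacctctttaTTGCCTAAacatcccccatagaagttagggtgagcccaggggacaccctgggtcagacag
Pck1, chr2:173152823-173153047, plus strand: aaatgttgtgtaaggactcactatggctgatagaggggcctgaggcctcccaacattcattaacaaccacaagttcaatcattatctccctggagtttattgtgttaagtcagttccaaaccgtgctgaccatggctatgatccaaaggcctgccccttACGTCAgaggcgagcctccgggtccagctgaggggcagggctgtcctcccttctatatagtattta
Retn, chr8:3655520-3655769, plus strand: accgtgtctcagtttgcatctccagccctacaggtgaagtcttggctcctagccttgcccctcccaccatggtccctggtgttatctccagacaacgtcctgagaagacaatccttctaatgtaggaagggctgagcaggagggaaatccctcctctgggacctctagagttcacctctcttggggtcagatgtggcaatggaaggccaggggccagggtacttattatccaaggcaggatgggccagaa
In the table of promoters 9 of the 10 genes had an entry, with 11 windows in all because Cidec and Lipe had more than 1 start, and Car3 had none. Motifs were searched on both strands in the 250 bases upstream of each RefSeq start. The C/EBP motif TTGCNNAA was found upstream of Lep, Plin1 and 1 of the Cidec starts, and in 9.56% of 32851 windows of all genes. Plin1 held 2 matches, 1 of which lies beyond the stretch shown. The Lep match lay from base -55 to base -48 before the start. TGACGT, the core of a cAMP response element, was found in Pck1 from base -91 to base -86 and in 6.47% of all windows. This element of the Pck1 promoter is known from rat as a site of cAMP control. The E-box CACGTG was found at 1 of the Lipe starts and in 6.02% of all windows. The full direct repeat bound by PPARG with RXR was in none of the 11 windows and in 0.0335% of all. TATAAA (12.4% of all windows), TCACNCCAC (1.05%) and the full glucocorticoid response element (0.00913%) were also in none of the 11. No searched motif was found in the Adipoq or the Retn stretch, which says only that these letters are not in those windows.

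The deposited values were CPM, reads scaled to a common library total, from libraries of 1615968 to 3829356 listed reads in KO and 1034753 to 2501048 in WT. Mfn2 itself stood at 66.7 ± 37.0 CPM in the libraries labelled KO and 36.1 ± 15.0 CPM in those labelled WT (SD, n = 5 and 4). In the deposited CPM it was not lower under the KO label, so every direction given here rests on the labels. All 16 of 16 listed endothelial genes were measured and none was at 0 in a group, and their summed CPM ran from 3289 to 7628 in KO and from 1085 to 3809 in WT. The 2 mitochondrial rRNAs took 12.8 to 25.2% of reads in KO and 13.9 to 64.8% in WT. The median log2 fold change of all genes was 1.10 in the deposited CPM. For that reason a second, relative scale was used beside it, in which the median log2(CPM + 1) of each library was subtracted from all its values. There the median change of all genes was 0.12. Fold changes on both scales are limma estimates of KO over WT on log2(CPM + 1), which understates changes of genes with few reads. Adjusted p stands for the Benjamini-Hochberg value over all 11802 genes. Mfn2 had a log2 fold change of 0.81 in the deposited CPM (adjusted p = 0.131 in limma). On the relative scale its change was -0.16 (adjusted p = 0.898 in limma), and it was called on neither scale.

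Adiponectin RNA was the member with the lowest change. Adipoq (ENSMUSG00000022878, chromosome 16, 23146536 to 23158028, plus strand) encodes the insulin-sensitising hormone of fat cells. It was at 39.2, 23.4, 41.5, 48.6 and 17.0 CPM in KO1 to KO5, against 15.3, 48.3, 45.2 and 68.4 CPM in WT1 to WT4. The groups overlapped in CPM, with WT1 below every KO library and WT4 above every one. In the deposited CPM this gave a log2 fold change of -0.29 (adjusted p = 0.597 in limma, SE 0.472). Relative to the library median, Adipoq stood at 0.91, 0.46, 0.92, 1.13 and -0.47 in KO1 to KO5 and at 1.16, 2.13, 2.14 and 2.02 in WT1 to WT4, on the log2 scale. On that scale all 5 libraries labelled KO lay below all 4 labelled WT, though KO4 and WT1 were only just apart. The relative change was -1.27 (SE 0.374, 95% interval -2.05 to -0.49), with an unadjusted p of 0.00279 and an adjusted p of 0.182 in limma. It was called lower by DESeq2 on the recovered reads (-1.34, adjusted p = 0.0306) and not by edgeR (adjusted p = 0.177).

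Resistin RNA was higher under the KO label in the deposited CPM. Retn (ENSMUSG00000012705, chromosome 8, 3655770 to 3660110, plus strand) encodes a secreted protein that opposes insulin action in mice. It was at 34.3, 28.7, 29.6, 15.2 and 12.4 CPM in KO1 to KO5, against 5.85, 10.3, 7.88 and 4.75 CPM in WT1 to WT4. Every library labelled KO lay above every library labelled WT, with KO5 nearest to WT2. Its mean was 24.0 ± 9.64 CPM in KO and 7.19 ± 2.44 CPM in WT (SD, n = 5 and 4), a log2 fold change of 1.56 (adjusted p = 0.0281 in limma, SE 0.536). Relative to the library median the change was 0.58 (SE 0.490, adjusted p = 0.687) and the groups overlapped. Retn rested on few reads, 26 to 113 in KO and 5 to 26 in WT.

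Adipsin RNA, from Cfd (ENSMUSG00000061780, chromosome 10, 79890853 to 79892655, plus strand), which encodes complement factor D, was also called higher in the deposited CPM. It was at 129, 56.4, 201, 145 and 77.9 CPM in KO1 to KO5, against 33.3, 78.3, 38.9 and 64.6 CPM in WT1 to WT4. KO1, KO3 and KO4 stood above every WT library, while KO2 and KO5 lay within the WT range. This was a log2 fold change of 1.11 (adjusted p = 0.0427 in limma, SE 0.427), and the relative change was 0.14 (SE 0.340, adjusted p = 0.911).

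Leptin RNA was scarce and scattered. Lep (ENSMUSG00000059201, chromosome 6, 29060220 to 29073877, plus strand) encodes the satiety hormone whose blood level follows fat mass. It was at 3.95, 8.60, 15.2, 6.44 and 22.9 CPM in KO1 to KO5, against 1.80, 16.2, 2.10 and 9.50 CPM in WT1 to WT4. The groups overlapped over most of their range, with 11 to 89 reads in KO and 4 to 41 in WT. Neither the log2 fold change of 0.76 (adjusted p = 0.318 in limma, SE 0.644) nor the relative change of -0.22 (SE 0.590, adjusted p = 0.920) passed the test. The 95% interval of the relative change, from -1.45 to 1.01, leaves changes of either sign within the data.

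**Figure D1:**
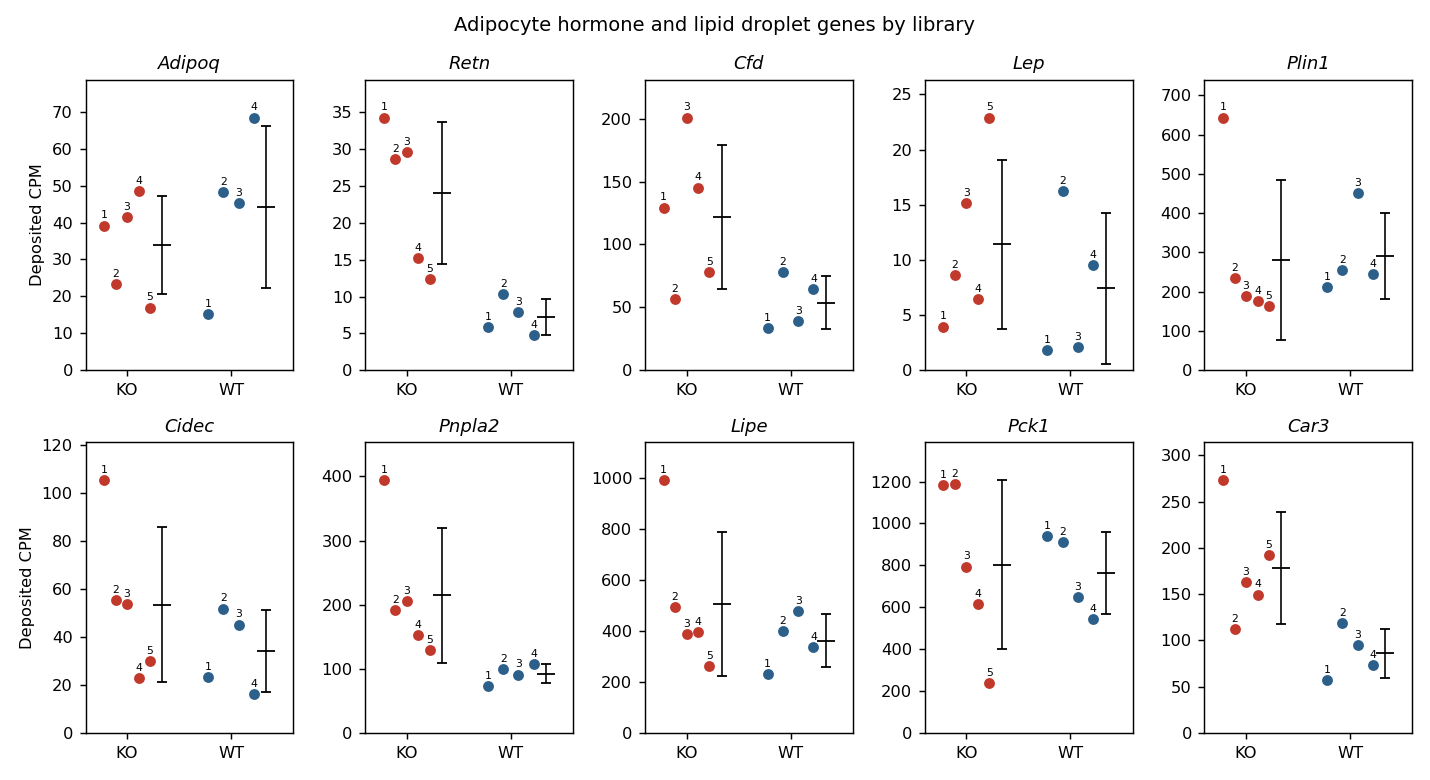
Deposited CPM (vertical axes, linear from 0, a separate scale for each gene) of the 10 genes in the 5 libraries labelled KO (red) and the 4 labelled WT (blue), with the replicate number above each point and bars for the mean ± SD at the right of each group. Retn and Pnpla2 are the 2 genes in which every KO point lies above every WT point, and KO1 stands far above the other KO libraries in Plin1 (644 CPM) and Pnpla2 (394 CPM).

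Perilipin 1 RNA was highest in 1 library labelled KO and lowest in 3 others with that label. Plin1 (ENSMUSG00000030546, chromosome 7, 79720218 to 79732903, minus strand) was at 644, 236, 188, 177 and 164 CPM in KO1 to KO5, against 211, 255, 452 and 244 CPM in WT1 to WT4. KO1 was the highest of the 9 libraries, the lowest 3 were KO3, KO4 and KO5, and KO2 lay within the WT range. Plin1 had a log2 fold change of -0.20 in the deposited CPM (adjusted p = 0.690 in limma, SE 0.417) and -1.17 (SE 0.395, 95% interval -2.00 to -0.35) on the relative scale, with an unadjusted p of 0.0074 and an adjusted p of 0.250. Relative to the library median it was at 4.92, 3.74, 3.07, 2.97 and 2.73 in KO1 to KO5 and at 4.86, 4.50, 5.44 and 3.84 in WT1 to WT4. KO2 to KO5 lay below every WT library on this scale, and KO1 lay within the WT range. Without KO1 the relative change of Plin1 was -1.53 and was called lower (adjusted p = 0.0362 in limma).

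Cidec (ENSMUSG00000030278, chromosome 6, 113424634 to 113435760, minus strand) is known for the growth of the single large droplet of white fat cells. It was at 105, 55.4, 53.7, 22.8 and 30.1 CPM in KO1 to KO5, against 23.4, 51.8, 45.2 and 16.2 CPM in WT1 to WT4. KO1 stood far above the next library, KO2 and KO3 lay just above the WT range, and KO4 and KO5 lay within it. Its log2 fold change of 0.58 (adjusted p = 0.296 in limma, SE 0.472) and relative change of -0.39 (SE 0.483, adjusted p = 0.796) did not pass the test.

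The lipases of the first and second steps of lipolysis differed in their calls. Pnpla2 (ENSMUSG00000025509, chromosome 7, 141455198 to 141460743, plus strand), which removes the first fatty acid from triglyceride, was at 394, 192, 205, 153 and 129 CPM in KO1 to KO5, against 72.5, 99.7, 90.9 and 107 CPM in WT1 to WT4. Every library labelled KO lay above every library labelled WT, and KO1 stood apart at the top. Its log2 fold change was 1.10 (adjusted p = 0.0341 in limma, SE 0.399), equal to the median of all genes at this precision, and the relative change was 0.13 (SE 0.328, adjusted p = 0.915).

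Lipe (ENSMUSG00000003123, chromosome 7, 25379527 to 25398710, minus strand), which removes the second fatty acid, was at 989, 494, 387, 395 and 262 CPM in KO1 to KO5, against 230, 398, 478 and 336 CPM in WT1 to WT4. Only KO1 and KO2 lay above all WT libraries. For Lipe the log2 fold change was 0.38 (adjusted p = 0.430 in limma, SE 0.414) and the relative change -0.59 (SE 0.366, adjusted p = 0.562). That Pnpla2 was called and Lipe was not does not show that their changes differ, and the difference was not tested. Lipe overlaps the antisense gene 4732471J01Rik, at 5.60 ± 3.55 CPM in KO and 1.13 ± 1.06 CPM in WT (SD, n = 5 and 4), whose reads cannot be told from those of Lipe without strand.

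Per kilobase of exon, Pck1 had the highest mean level of the 10 genes in both groups. The gene (ENSMUSG00000027513, chromosome 2, 173153048 to 173159273, plus strand) encodes cytosolic phosphoenolpyruvate carboxykinase, which in fat cells supplies glycerol 3-phosphate for re-esterification of fatty acids. It was at 1183, 1187, 794, 613 and 237 CPM in KO1 to KO5, against 940, 912, 649 and 545 CPM in WT1 to WT4. KO1 and KO2 lay above the WT range, KO3 and KO4 within it and KO5 below it. Between the groups Pck1 had a log2 fold change of -0.09 (adjusted p = 0.861 in limma, SE 0.445), and the relative change was -1.07 (SE 0.469, 95% interval -2.05 to -0.09) with an unadjusted p of 0.0336 and an adjusted p of 0.383. Pck1 stood, on the relative log2 scale, at 3.26 in KO5 and from 4.76 to 6.07 in the other KO libraries, against 4.99 to 7.01 in WT.

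Car3 (ENSMUSG00000027559, chromosome 3, 14863512 to 14872523, plus strand) encodes carbonic anhydrase 3, an enzyme abundant in fat cells, liver and slow skeletal muscle. It was at 273, 112, 163, 149 and 192 CPM in KO1 to KO5, against 57.2, 119, 95.1 and 73.2 CPM in WT1 to WT4. All KO libraries but KO2 lay above every WT library. That gave a log2 fold change of 1.03 (adjusted p = 0.0443 in limma, SE 0.399), and the relative change was 0.05 (SE 0.310, adjusted p = 0.964). Of 14 listed skeletal muscle genes 11 were measured, none at 0 in a group, with a summed CPM of 339 to 8347 in KO, the top value being that of KO5, and 64.8 to 148 in WT. Limma called all 11 higher in the deposited CPM, against 32.0% of all genes, with a median log2 fold change of 3.26. Relative to the library median all 11 were above 0, as were 57.9% of all genes, with a median of 2.28. Limma called 0 of them on that scale, where 8 of the 11 were higher at an unadjusted p under 0.05, against 5.99% of all genes. On the recovered reads edgeR called 0 of them and DESeq2 called Neb and Ryr1 higher, against 0.263% of all genes. Without KO5 the log2 fold change of Car3 was 0.98 (adjusted p = 0.0808 in limma) and its relative change 0.06 (adjusted p = 0.977). KO1 to KO4 still held 339 to 725 CPM of the muscle genes, above the WT range, so this fit does not separate muscle RNA. The muscle list holds no gene particular to slow fibres, and the part of muscle RNA in the level of Car3 was not tested.

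Across the 10 genes limma called 4 higher (Retn, Cfd, Pnpla2 and Car3) and 0 lower in the deposited CPM, where it called 32.0% of all genes higher and 0.203% lower. Their median log2 fold change was 0.67 (range -0.29 to 1.56), against 1.10 for all genes, and 7 of the 10 were above 0, against 94.6% of all genes. Retn and Pnpla2 were the 2 genes with every KO library above every WT library, where 18.7% of all genes had that order, and 0 of the 10 had the opposite order (0.0254% of all genes). These counts are near or below the background of the table. Relative to the library median, limma called 0 of the 10 in either direction (adjusted p from 0.182 to 0.964), against 0.0339% of all genes called higher and 0.0763% called lower. On the recovered reads edgeR also called 0 of the 10, against 0.00847% of all genes higher and 0.0339% lower, and DESeq2 called 1, Adipoq, against 0.263% of all genes higher and 1.05% lower. DESeq2 gave no adjusted p for Retn and Lep and so could not call them. Its shares are over all 11802 genes, and a gene without an adjusted p counts as not called in every list. At an unadjusted p under 0.05, 3 of the 10 passed (Adipoq, Plin1 and Pck1, each below 0), against 11.7% of all genes in either direction and 5.69% of them lower. The relative median was -0.31, with 4 genes above 0 and 6 below, while 57.9% of all genes lay above 0. Adipoq alone had every KO library below every WT library on the relative scale, an order that 1.74% of all genes showed, and 0 of the 10 had the opposite order, which 2.07% of all genes showed. With the share of mitochondrial rRNA as a covariate, the relative change was -1.51 for Adipoq, -0.51 for Plin1 and 0.15 for Pck1 (adjusted p = 0.344, 0.776 and 0.950 in limma), so that of Pck1 changed sign. In captured bulk RNA of this kind, fewer contributing cells, less RNA in each cell and less untagged RNA carried through the capture cannot be told apart.

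**Figure D2:**
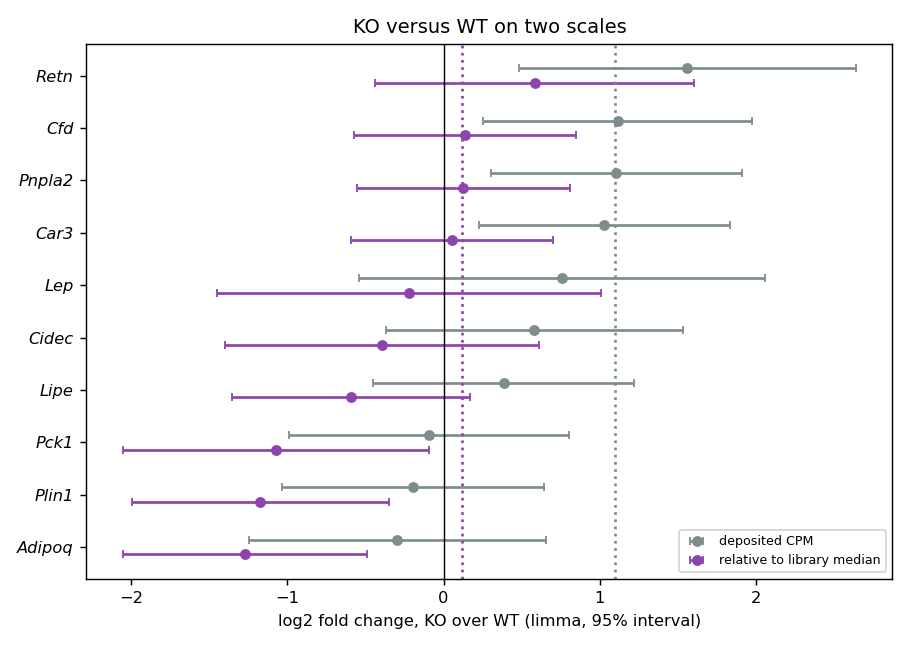
Log2 fold change of KO over WT with its 95% interval (limma) for the 10 genes, in deposited CPM (grey) and relative to the library median (purple), with dotted lines at the median of all genes on each scale (1.10 and 0.12). In the deposited CPM the intervals of Retn, Cfd, Pnpla2 and Car3 lie above 0, and on the relative scale those of Adipoq, Plin1 and Pck1 lie below 0.

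The 4 calls in the deposited CPM depended on single libraries. Of the 9 fits that each left out 1 library, Retn kept its call in 5, Cfd in 4, Car3 in 3 and Pnpla2 in 3, and each of the 4 stayed higher in all 9. Retn lost its call without KO1 (adjusted p = 0.0579 in limma), KO3 (0.0789), WT1 (0.0696) or WT3 (0.0502). Cfd lost its call without KO1 (0.0643), KO3 (0.136), KO4 (0.100), WT1 (0.134) or WT3 (0.113), in the same limma test with adjusted p. Car3 lost it without KO1 (0.0975), KO3 (0.0855), KO4 (0.0749), KO5 (0.0808), WT1 (0.127) or WT3 (0.0730), again as limma adjusted p. Pnpla2 lost it without KO1 (adjusted p = 0.0930 in limma), KO3 (0.0742), KO4 (0.0526), WT1 (0.0927), WT2 (0.0588) or WT3 (0.0723). With edgeR on the recovered reads and library totals as scaling, which called 17.8% of all genes higher, Retn (adjusted p = 0.0399) and Pnpla2 (0.0464) were called, while Cfd (0.0601) and Car3 (0.0705) were not.

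Shares of the summed CPM of the 10 genes do not depend on how a library is scaled. Pck1 made up 35.1 ± 10.5% of the summed CPM of the 10 genes in KO and 44.0 ± 11.2% in WT (SD, n = 5 and 4), and Lipe 22.2 ± 2.79% in KO and 20.6 ± 4.60% in WT. Plin1 made up 12.1 ± 3.41% in KO and 16.6 ± 5.04% in WT, and Adipoq 1.66 ± 0.765% in KO and 2.60 ± 1.53% in WT. These 4 shares overlapped between the groups. Pnpla2 made up 8.01 to 11.2% in KO and 4.55 to 7.31% in WT. Retn made up 0.883 to 1.42% in KO and 0.323 to 0.518% in WT. Retn and Pnpla2 were the 2 of the 10 whose shares in KO all lay above those in WT, an order that 4.32% of all genes had when set against the same sum, and 0 of the 10 lay wholly below, against 0.119% of all genes. Car3 made up 16.8% of the sum in KO5 and 4.67 to 8.66% in the other KO libraries, against 3.59 to 5.97% in WT.

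**Figure D3:**
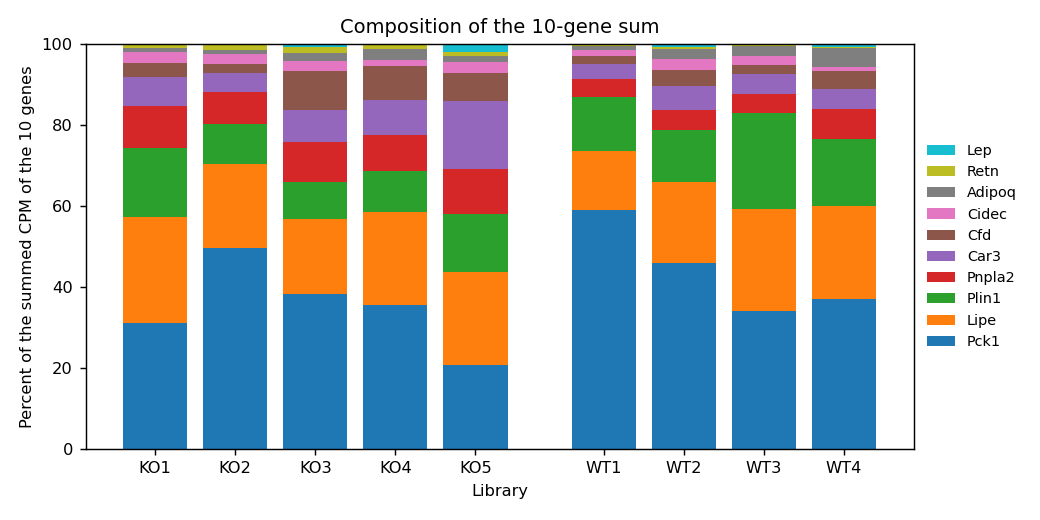
Percent of the summed CPM of the 10 genes taken by each gene (vertical axis, 0 to 100) in each library, KO1 to KO5 at the left and WT1 to WT4 at the right. Pck1 and Lipe together fill the larger part of most bars, and the Pnpla2 segment is wider in every KO bar (8.01 to 11.2%) than in any WT bar (4.55 to 7.31%).

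Set against Adipoq within each library, Cfd was at 2.41 to 4.84 times the CPM of Adipoq in KO and 0.861 to 2.18 times in WT, with no overlap. The ratio to Adipoq had that order in 25.0% of all genes, so 1 of the other 9 members in that order is below the background. Retn was at a median of 0.727 times the CPM of Adipoq in KO (range 0.313 to 1.22) and 0.194 times in WT (range 0.0694 to 0.382). The lowest KO ratio of Retn, in KO4, lay within the WT range. For Plin1 the median ratio was 9.66 in KO and 7.64 in WT, and for Lipe 15.4 in KO and 9.41 in WT, with ranges that overlapped widely. Pck1 had a median ratio of 19.1 in KO and 16.6 in WT, with the top values in KO2 (50.7) and WT1 (61.4).

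Per kilobase of annotated exon, the order of levels ran from Pck1 to Lep in both groups. In KO it was Pck1 (234 ± 117 CPM per kb), Cfd (132 ± 62.0), Lipe (85.8 ± 48.0), Pnpla2 (71.0 ± 34.7), Car3 (62.0 ± 21.1), Plin1 (60.6 ± 43.9), Cidec (28.8 ± 17.4), Adipoq (24.6 ± 9.56), Retn (15.2 ± 6.10) and Lep (3.40 ± 2.28), each as the mean CPM per kb with its SD over 5 libraries. Of these neighbours only Retn and Lep did not overlap. In WT it was Pck1 (222 ± 57.0 CPM per kb), Plin1 (62.5 ± 23.5), Lipe (61.3 ± 17.7), Cfd (58.3 ± 23.1), Adipoq (32.1 ± 15.9), Pnpla2 (30.7 ± 4.98), Car3 (30.0 ± 9.34), Cidec (18.4 ± 9.19), Retn (4.56 ± 1.54) and Lep (2.21 ± 2.05), with the SD over 4 libraries. There Pck1 and Plin1, and Cidec and Retn, were the neighbours that did not overlap. Among all genes with an exon length, ranked by mean CPM per kb over the 9 libraries, Pck1 was at rank 134, Cfd at 342, Lipe at 461, Plin1 at 583, Adipoq at 1355 and Lep at 7676.

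The summed CPM of the 10 genes varied more among the libraries labelled KO than between the groups. It was 3795, 2393, 2078, 1725 and 1144 CPM in KO1 to KO5, against 1591, 1988, 1903 and 1469 CPM in WT1 to WT4. KO1, KO2 and KO3 lay above every WT library and KO5 below every one. KO1 held the highest CPM of 6 of the 10 genes, and WT1, the library with the largest share of mitochondrial rRNA, held the lowest CPM of 6. The endothelial sum moved differently, at 3319, 3289, 7628, 6229 and 7115 CPM in KO1 to KO5, against 1085, 2141, 1469 and 3809 CPM in WT1 to WT4. The ratio of the 10-gene sum to the endothelial sum was 1.14, 0.728, 0.272, 0.277 and 0.161 in KO1 to KO5, against 1.47, 0.929, 1.30 and 0.386 in WT1 to WT4. KO3, KO4 and KO5 lay below every WT library in this ratio, and KO1 and KO2 lay within the WT range. The part of the amount of endothelial RNA in the changes of the 10 genes was examined only by a covariate for the endothelial genes. With it limma called 0 of the 10 and 0 of all genes in the deposited CPM, with 3 of the 10 and 1083 of all genes at an unadjusted p under 0.05. The 3 were Retn (2.11, adjusted p = 0.380 in limma), Pnpla2 (1.28, adjusted p = 0.438) and Cidec (1.48, adjusted p = 0.517), each higher in KO. In this fit 8 of the 10 were above 0. The log2 fold change of Adipoq was then -1.11 (unadjusted p = 0.0985, adjusted p = 0.623 in limma). The endothelial genes were themselves mostly higher in KO, so this fit cannot separate their amount from the label.

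**Figure D4:**
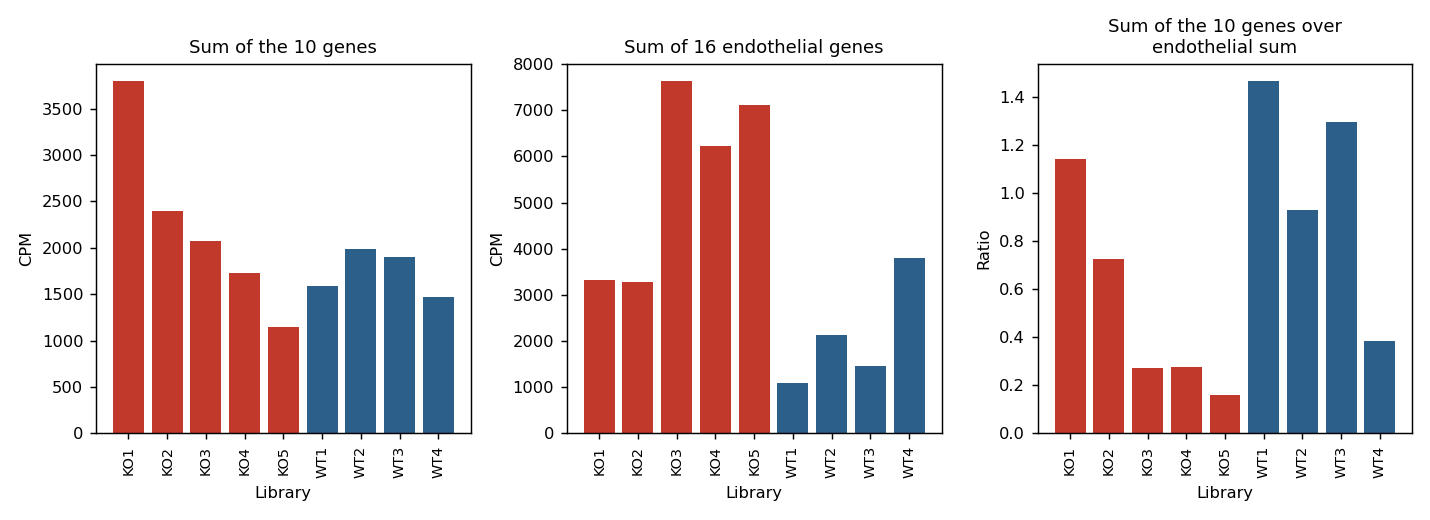
Summed CPM of the 10 genes, summed CPM of 16 endothelial genes, and the ratio of the first to the second, in each library labelled KO (red) and WT (blue), with bars from 0. The 10-gene sum lies between 1144 and 3795 CPM in KO and between 1469 and 1988 CPM in WT, and the ratio is lowest in KO5 (0.161) and highest in WT1 (1.47).

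Other cell types were also represented. Of 16 further fat-cell genes, all 16 were measured and none was at 0 in a group, with a summed CPM of 9157 to 21002 in KO and 3308 to 7208 in WT. Most of that sum was Fabp4, the fatty acid carrier that fat cells and capillary endothelium both express, at 7167 to 18869 CPM in KO and 2589 to 5973 CPM in WT. Limma called 3 of the 16 higher in the deposited CPM, against 32.0% of all genes. On the recovered reads edgeR and DESeq2 called 0 of the 16. On the relative scale limma also called 0, and the median was -0.33 with 11 of the 16 below 0. There 3 of the 16 were lower at an unadjusted limma p under 0.05, against 5.69% of all genes. Of 10 fibroblast and preadipocyte genes 9 were measured, at a sum of 2448 to 13418 CPM in KO and 2942 to 9748 CPM in WT, and all 10 macrophage genes, at 489 to 1171 CPM in KO and 220 to 947 CPM in WT. Their relative medians were -0.51, with 8 of 9 below 0, and -0.30, with 7 of 10 below 0, where 57.9% of all genes lay above 0. Of 10 pericyte and smooth muscle genes 6 were measured, at 287 to 477 CPM in KO and 107 to 237 CPM in WT. Their relative median was -0.02, with 3 above 0 and 3 below, and that of 5 red blood cell genes was 0.03. Of 10 lymphocyte genes 1 was in the table, and none of 6 mesothelial or 8 mammary epithelial genes was. The part of these cell types in the levels of the 10 genes was not tested.

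On the relative scale the 10 genes did not move as 1 block across the 9 libraries, which share these normalised values and differ in depth and in mitochondrial rRNA. The Pearson correlation of each gene with the mean of the other 9 was 0.898 for Cidec, 0.882 for Lipe, 0.803 for Pck1, 0.735 for Plin1 and 0.720 for Pnpla2. It was 0.598 for Car3, 0.534 for Retn, 0.407 for Adipoq, 0.274 for Cfd and -0.311 for Lep, all over 9 libraries and as a description. Genes of the droplet and of fatty acid handling followed the mean of the others more closely than the 4 hormone genes did. Of those 4, Retn (5 to 113 reads) and Lep (4 to 89 reads) rested on few reads, and the part of depth in this order was not tested. The non-members most like the mean of the 10 genes were Nabp1 (Pearson r 0.954), E4f1 (0.942), Slc24a3 (0.936), Cecr2 (0.935), Pde3b (0.935) and Ptprd (0.932), over the same 9 libraries. Pde3b, the phosphodiesterase through which insulin restrains lipolysis in fat cells, was at 180 ± 80.0 CPM in KO and 131 ± 29.9 CPM in WT (SD, n = 5 and 4), with a relative change of -0.61 (adjusted p = 0.555 in limma).

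Among 94 other genes of the same pathways, limma called 36 higher and 0 lower in the deposited CPM, with 46 higher and 0 lower at an unadjusted p under 0.05. Of all genes 32.0% were called higher and 49.7% were higher at an unadjusted p under 0.05 (0.356% lower), so both counts are near the background. On the recovered reads edgeR called 0 of the 94 and DESeq2 called 1, Angptl4, which was higher. On the relative scale limma called 0 of the 94. There 5 of the 94 were higher and 8 lower at an unadjusted limma p under 0.05, against 5.99% of all genes higher and 5.69% lower. Of 8 further adipokine genes 3 were among those higher, with a median log2 fold change of 0.98 and a relative median of 0.00. Angptl4, an inhibitor of lipoprotein lipase, was at 151 ± 45.4 CPM in KO and 38.6 ± 13.6 CPM in WT, a log2 fold change of 1.95 (adjusted p = 0.00364 in limma). Nampt, an enzyme of NAD synthesis that is also found outside cells, was at 33.5 ± 11.3 CPM in KO and 6.98 ± 3.80 CPM in WT (2.16, adjusted p = 0.00675). In both every KO library lay above every WT library, and both kept their call in all 9 fits that left out 1 library. The relative change of Angptl4, 0.97 (adjusted p = 0.182 in limma), was called without KO1 (1.14, adjusted p = 0.0475).

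Of 15 further lipid droplet genes 5 were called higher in CPM, with a median log2 fold change of 0.94 and a relative median of -0.03. Plin2, the droplet coat protein of most cell types, was at 350 ± 29.2 CPM in KO and 104 ± 46.5 CPM in WT, a log2 fold change of 1.85 (adjusted p = 0.00364 in limma), where Plin1, the fat-cell member of the family, was at -0.20. Relative to the library median Plin2 was at 0.88 (adjusted p = 0.229) and Plin1 at -1.17 (adjusted p = 0.250), neither of them called, and the difference between the 2 genes was not tested. Of 15 further lipolysis genes 9 were called higher, with a median of 1.37 and a relative median of 0.39. They included Npr1, a natriuretic peptide receptor, at 199 ± 64.9 CPM in KO and 63.9 ± 28.1 CPM in WT (1.66, adjusted p = 0.00733 in limma), and Mgll, the lipase of the last step, at 508 ± 170 CPM in KO and 197 ± 75.0 CPM in WT (1.37, adjusted p = 0.0151). Abhd5, the co-activator of the Pnpla2 lipase, was at 70.2 ± 51.8 CPM in KO and 22.1 ± 7.45 CPM in WT (1.44, adjusted p = 0.0223 in limma). Mgll lost its call without WT1 (adjusted p = 0.0606 in limma) or WT3 (0.0552), and Abhd5 without KO1 (0.0735), KO3 (0.0523), WT1 (0.0856) or WT3 (0.0506).

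Of 12 further genes of glycerol 3-phosphate and triglyceride synthesis 4 were called higher, with a median log2 fold change of 0.65 and a relative median of -0.32. Gpat4, an enzyme that adds the first acyl chain to glycerol 3-phosphate, was at 174 ± 43.6 CPM in KO and 60.5 ± 33.4 CPM in WT (1.62, adjusted p = 0.00786 in limma). Of 14 genes of fatty acid synthesis 2 were called higher, with a median of 0.70 and a relative median of -0.27. Of 15 genes of fatty acid and glucose uptake 8 were called higher, with a median of 1.35 and a relative median of 0.38. Gpihbp1, which carries lipoprotein lipase across capillary endothelium, was at 1106 ± 427 CPM in KO and 372 ± 145 CPM in WT (1.56, adjusted p = 0.0106 in limma). Slc2a4, the insulin-regulated glucose transporter of fat and muscle, was at 3.34 to 23.1 CPM in KO and 10.7 to 14.2 CPM in WT and was not called (adjusted p = 0.929 in limma).

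Of 15 transcription factor genes of the fat-cell programme 7 were called higher, with a median log2 fold change of 1.09 and a relative median of 0.11. Pparg, the master regulator of fat-cell differentiation, was at 117 ± 60.9 CPM in KO and 44.8 ± 13.3 CPM in WT (1.30, adjusted p = 0.0227 in limma), with every KO library above every WT library. Its call was lost without KO1 (adjusted p = 0.0612 in limma), KO3 (0.0530) or WT1 (0.0887). Cebpb was at 19.6 ± 4.20 CPM in KO and 4.43 ± 3.05 CPM in WT (2.26, adjusted p = 0.0107 in limma), while Cebpa, which takes over later in differentiation, was at 67.7 to 105 CPM in KO and 55.8 to 115 CPM in WT (0.18, adjusted p = 0.703). Of 6 measured thermogenic genes limma called 0 on either scale, with 1 at an unadjusted p under 0.05 (lower, on the relative scale), and their median was 0.03, with a relative median of -0.95. Ppargc1b, a co-activator of mitochondrial genes, was at 61.3 ± 67.3 CPM in KO and 62.0 ± 22.5 CPM in WT, and KO1 alone was at 179 CPM. Its relative change of -1.49 (adjusted p = 0.287 in limma) was called lower without KO1 (-2.02, adjusted p = 0.0435). Set beside the medians of 1.10 and 0.12 for all genes, the lists of lipolysis and of fatty acid and glucose uptake lay above on both scales, and the other 6 lay below on both, the transcription factors only just. The 16 endothelial genes also lay above both, with medians of 1.43 and 0.45. Limma called 14 of those 16 higher in the deposited CPM, against 32.0% of all genes. All 16 were above 0 on the relative scale, as were 57.9% of all genes. There limma called 0, and 3 were higher at an unadjusted limma p under 0.05, against 5.99% of all genes. On the recovered reads edgeR and DESeq2 also called 0 of the endothelial genes. The lists of lipolysis and of uptake share no gene with the endothelial list. Both hold Fabp4, and the uptake list also holds Cd36 and Gpihbp1, genes that capillary endothelium expresses. Fabp4 was not called in the deposited CPM (adjusted p = 0.0559 in limma). The part of endothelial RNA in the medians of these lists was not tested. With the endothelial covariate limma called 0 genes of either list in the deposited CPM, as it did of all genes. In that fit 4 of the 15 lipolysis genes and 3 of the 15 uptake genes had an unadjusted p under 0.05, against 1083 of all 11802 genes.

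**Figure D5:**
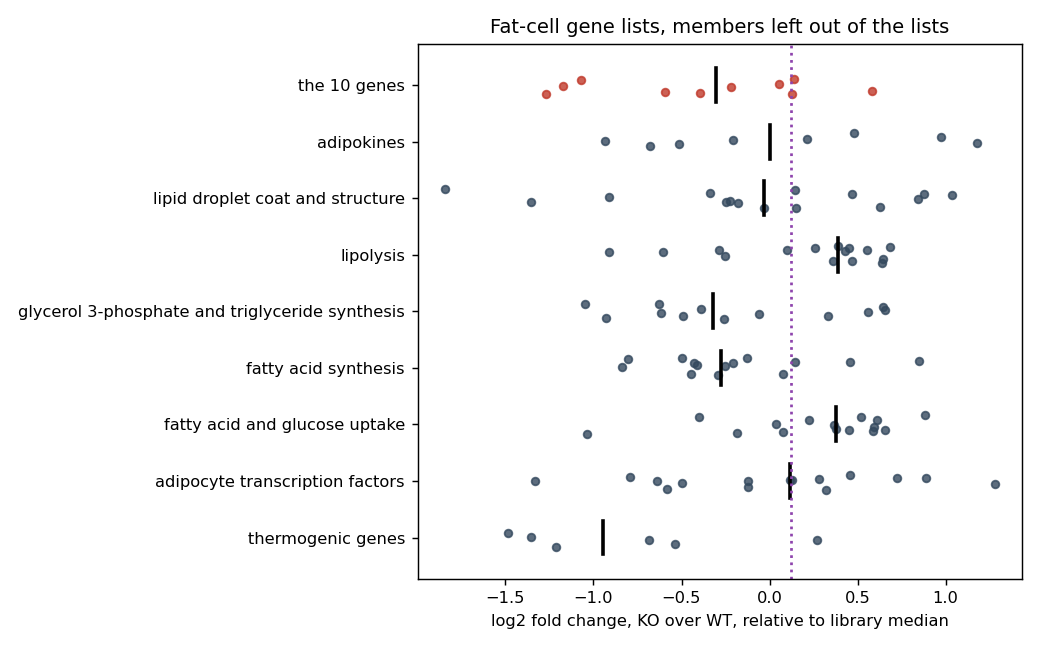
Log2 fold change of KO over WT relative to the library median for the 10 genes (red, top row) and for the other measured genes of 8 pathway lists (grey), with a black bar at the median of each row and a dotted line at 0.12, the median of all genes. Medians run from -0.95 for thermogenic genes to 0.39 for lipolysis genes, and the 10 genes have a median of -0.31.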

How the data were processed

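Each capture started from 50 to 100 mg of white adipose tissue, and a low-input kit copied 2 to 5 ng of the captured RNA, followed by tagmentation, which keeps no strand, per the labels' protocols. The authors deposited CPM, per the labels. Tools named without a role in the submitters' processing notes are HISAT2 (version 2.1.0), Trimmomatic (0.39), FastQC (0.11.9), R (4.0.2) and edgeR (3.32.0), with the genome builds mm10 and GRCm38. Which program counted reads, with which strand setting and annotation, is not given in the sources used here. Ensembl identifiers were joined to GENCODE M21 (GRCm38) for symbols, coordinates and exon lengths, with 11787 of 11802 genes matched.

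The CPM were whole multiples of a single step in each library, and at least 99.97% of nonzero values came out as whole reads within 0.1 read. Each library gave 1034753 to 3829356 listed reads. The test was limma 3.58.1 (R 4.3.3) with a trend on log2(CPM + 1), fitted to all genes with KO and WT as the groups, with Benjamini-Hochberg adjusted p under 0.05 as a call. The relative scale subtracts the median log2 value of each library. A mean CPM of at least 1 removed 0 genes. The labels give no batch. The spread between these libraries, which may be technical, is what p-values measure. Across genes, replicates of a group correlated at 0.745 to 0.880.

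The 10 genes, the pathway and marker lists, the tests and the alternatives were chosen with earlier results of these data known. All 10 genes are named. From each pathway list the rule took up to 4 called genes with the smallest p, some of which are described by count only, or 2 with the highest mean CPM where none was called, and the 6 genes of at least 5 CPM most like the mean of the 10. Cebpa, Fabp4 and Slc2a4 were named after seeing their values. Settings tried instead were pseudocounts of 0.5 and 5, no filter or a minimum mean CPM of 5, quantile normalisation, array weights, limma without trend, a block for the replicate number, covariates for endothelial genes and mitochondrial rRNA, CPM without the mitochondrial rRNAs, leaving out each library, and DESeq2 1.42.0 and edgeR 4.0.16 on the recovered reads. Transcripts of the 10 genes were searched against all others with blastn 2.17.0 for matches of at least 95% identity over 200 bases, and Lipe with its antisense neighbour was the only pair. The tests were also tested on simulated data.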

Additional observations from a re-analysis of the deposited data

Results flagged for a closer look

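In the libraries labelled KO, 1 library stood apart from the other 4 in 2 of the 10 genes by the gap to its nearest neighbour as a share of the whole range. KO1 had 643.52 CPM of Plin1, where the next KO library had 236 CPM, and 394.0 CPM of Pnpla2, where the next had 205 CPM. The test covered 24 groups of values, and chance flags about 1 in 20. Without KO1 the log2 fold change of Pnpla2 was 0.86 in the deposited CPM (limma adjusted p = 0.0930), and that of Plin1 was -0.55 in the deposited CPM and -1.53 on the relative scale.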

How the results depend on the processing

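DESeq2, and edgeR where it is listed with the relative scale, used their own scaling factors in place of the library median. Other settings are given as genes called higher and lower of all, then members called. In the deposited CPM these were 2104, 19 and 2 with edgeR, 0, 0 and 0 with the endothelial covariate, 16, 2 and 0 with the mitochondrial rRNA covariate, 21, 4 and 0 without the mitochondrial rRNAs, and 1932, 8 and 2 with the replicate block. Limma without trend called 10 lower and 1 member. Leaving out 1 library gave 1094 to 5916 higher, 7 to 23 lower and 0 to 4 members. On the relative scale they were 31, 124 and 1 with DESeq2, 11 and 52 with array weights, 1 and 4 with edgeR, 0 and 0 with either covariate or without trend, 2 and 2 at a pseudocount of 0.5, and 8 and 30 with the replicate block. A mean CPM of at least 5 gave 2 lower and quantile normalisation 5 lower, and leaving out 1 library gave 0 to 21 higher, 0 to 106 lower and 0 to 1 members, the top values being those without KO1. Members above 0 ran from 2 to 6 over all settings, with 2 under array weights and 2 to 5 with 1 library left out.

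Deposited changes that turned sign were Pck1 with edgeR (0.076), the endothelial covariate (0.98), the mitochondrial one (0.52) and the replicate block (0.29), Lep with those covariates (-1.04 and -0.12), Plin1 with the endothelial one (0.50), and Lipe (-0.22) and Cidec (-0.014) without the mitochondrial rRNAs. Leaving out 1 library moved Pck1 between -0.29 and 0.29 and Plin1 between -0.55 and 0.036. Relative changes that turned were Car3 with DESeq2 (-0.076), edgeR (-0.081) and array weights (-0.12), Pnpla2 with array weights (-0.0090), Cfd (-0.025) and Lipe (0.19) with the endothelial covariate, Cidec with it (0.50) and with the mitochondrial one (0.77), and Pck1 with that one (0.15). With 1 library left out Car3 ran from -0.22 to 0.21, Pnpla2 from -0.13 to 0.33, Cfd from -0.064 to 0.33 and Lep from -0.53 to 0.25. The relative change of Adipoq was below 0 and that of Retn above 0 in all settings tried. The cause of these shifts was not tested.

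Libraries with the same replicate number in KO and WT deviated together at correlations of 0.0288, -0.0218, -0.0397 and 0.0386. Pairs with different numbers ran from -0.102 to 0.0976. These values show no pairing by number, but with so few libraries they cannot exclude it. Retn (5 reads in WT4) and Lep (4 reads in WT1) are limited by depth.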
